A study of Mus musculus with 4 samples.

Results

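The genes described here are 40 that mark epithelial cells or give them their shape: keratins, tight junction and desmosome proteins, adhesion proteins of the cell base, transcription and splicing regulators, and surface proteins with the proteases that act there. They were taken by name, and 1 value per gene came from the probe set (a group of oligonucleotides on the array that reports 1 transcript) with the highest mean signal among those annotated to that gene alone. All 40 had such a probe set, among 12393 genes measured in this way. The 4 samples were tumors grown under the skin of nude mice (NCR Nu/Nu) after injection of 10000000 immortalized baby mouse kidney epithelial cells (iBMK) per mouse. In 2 tumors the cells expressed p62-EGFP, the autophagy adaptor p62 fused to a green fluorescent protein, and in the other 2 they expressed EGFP alone. The cells of both groups were Atg5-/-, so that they lacked a gene needed for autophagy, and both expressed Bcl-2, which blocks apoptosis. No further treatment was given, and no age of the mice is stated. Nude mice lack a thymus, and with it most T cells, but keep macrophages. The study treats the tumors within each group, grown in parallel from isogenic lines, as replicates. Since nothing states that each came from its own mouse or culture, p-values measure only the spread between these tumors, which may be technical.

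Simple epithelia such as the kidney tubule build their intermediate filaments from pairs of a type II and a type I keratin, typically keratin 8 with keratin 18 or keratin 19. Tight junctions, made of claudins and occludin on a scaffold of ZO proteins, seal the space between cells, and desmosomes anchor the keratin filaments to the neighbouring cell. Transcription factors of the Grainyhead-like, Ovo-like and ETS families keep these genes on, and the repressors Zeb1 and Zeb2 turn many of them off by binding a short DNA element, the E2-box CACCTG.

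Because repressors of the Zeb family are known to act at this element, the promoters of the genes (250 bases before to 50 after the start of the gene, RefSeq, build GRCm38.p6) were searched for CACCTG on both strands, which reads CAGGTG on the other. A promoter sequence was matched for 23 of the 40 genes, and 14 of the 23 (60.9%) held the element, against 20.0% of all 27025 promoters and 18.6% of the 9882 promoters of genes on the array. Those of 4 genes are shown, 1 each for a keratin, a claudin, a transcription factor and a surface protein whose signals are given further on, in lower case with the element in capitals. They lie at chr15:102027966-102028265 on the plus strand for Krt18, at chr5:134985964-134986263 on the plus strand for Cldn3, at chr1:135258423-135258722 on the minus strand for Elf3 and at chr17:87635729-87636028 on the plus strand for Epcam.
Krt18: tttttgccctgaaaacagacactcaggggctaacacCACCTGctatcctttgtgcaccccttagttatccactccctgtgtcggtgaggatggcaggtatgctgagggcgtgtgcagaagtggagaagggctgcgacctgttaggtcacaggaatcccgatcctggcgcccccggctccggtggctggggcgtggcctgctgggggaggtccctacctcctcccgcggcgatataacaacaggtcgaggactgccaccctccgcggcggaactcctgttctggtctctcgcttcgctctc
Cldn3: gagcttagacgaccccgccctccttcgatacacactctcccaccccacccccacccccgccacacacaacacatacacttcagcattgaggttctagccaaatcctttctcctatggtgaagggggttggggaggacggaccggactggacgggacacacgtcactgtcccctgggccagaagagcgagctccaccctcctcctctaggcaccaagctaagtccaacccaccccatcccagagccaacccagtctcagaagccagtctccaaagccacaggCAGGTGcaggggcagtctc
Elf3: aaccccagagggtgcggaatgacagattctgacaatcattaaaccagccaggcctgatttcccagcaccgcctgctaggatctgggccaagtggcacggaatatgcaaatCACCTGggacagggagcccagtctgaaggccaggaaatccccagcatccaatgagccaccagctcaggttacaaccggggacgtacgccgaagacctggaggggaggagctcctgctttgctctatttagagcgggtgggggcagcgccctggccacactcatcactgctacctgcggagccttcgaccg
Epcam: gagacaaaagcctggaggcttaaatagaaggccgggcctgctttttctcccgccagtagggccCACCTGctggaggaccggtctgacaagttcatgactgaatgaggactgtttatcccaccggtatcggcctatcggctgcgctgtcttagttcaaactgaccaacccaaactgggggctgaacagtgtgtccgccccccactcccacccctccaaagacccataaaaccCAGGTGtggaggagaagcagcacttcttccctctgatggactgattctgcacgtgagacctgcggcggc
Counted from the start of the gene as base 1, the element begins at -214 in Krt18, at 32 in Cldn3, at -140 in Elf3 and at -187 and -19 in Epcam. The Spint2 promoter held it 3 times and the Cldn4 and Cldn6 promoters 2 times each, and it was not in the windows of Krt20, Cldn1, Cldn7, Tjp1, Jup, Lamb3, Itgb6, Lad1 or Spint1. The Grainyhead-like element AACCNGTT, which reads AACNGGTT on the other strand, was in 1 of the 23 windows, that of Sfn, and in 2.01% of all promoters. A match is a stretch of letters and says nothing on whether a factor bound there. The log2 difference between p62-EGFP and EGFP tumors was set out for the genes that passed the filter on low values and had a promoter sequence. It had a median of 0.51 for the 9 with the element (0.02 to 1.24) and of 0.40 for the 3 without it (-0.14 to 0.57). The other genes that passed the filter, among them Krt19 with the largest difference, had no promoter sequence and are in neither median. A link between element and difference was not tested.

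The values are MAS5 signals on a linear scale, given as mean ± SD of 2 tumors, and differences are of log2(signal + 16), p62-EGFP minus EGFP. Genes whose mean over the 4 tumors lay below the 40th percentile of all probe sets, a log2 value of 5.60, are called dim and were not tested. The filter kept 22 of the 40. The other 18 are given as signals, many of them close to 0. Median signals of the arrays lay between 57.7 and 60.9. Sqstm1, which encodes p62, read 1433 and 1688 in p62-EGFP tumors 1 and 2, against 976 and 1156 in EGFP tumors 1 and 2, a log2 difference of 0.54 (SE 0.14) that did not pass (limma, Benjamini-Hochberg adjusted p = 0.235). Atg5, deleted in the grafted cells of all 4 tumors, read 91.3 and 93.9 in p62-EGFP tumors, against 118.7 and 102.8 in EGFP tumors; its probe set was not placed relative to the deleted part, and host cells carry the gene, so this does not check the deletion.

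Over the epithelial genes the lowest values gathered in 1 tumor. EGFP tumor 2 held the lowest signal for 18 of the 22 tested genes, and such genes made up 37.7% of all 7846 tested genes. The highest signal lay in p62-EGFP tumor 2 for 11 of the 22, in EGFP tumor 1 for 8, in EGFP tumor 2 for 2 and in p62-EGFP tumor 1 for 1, against 22.3%, 31.6%, 24.6% and 21.5% of all tested genes. The median deviation of the 22 from their own mean over the 4 tumors was 0.01 in p62-EGFP tumor 1 and 0.32 in p62-EGFP tumor 2 on the log2 scale, against 0.08 in EGFP tumor 1 and -0.41 in EGFP tumor 2. In whole tumors, fewer epithelial cells and less RNA of these genes per cell cannot be told apart. The map of all 40 genes shows this as a blue last column with few exceptions.

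**Figure D1:**
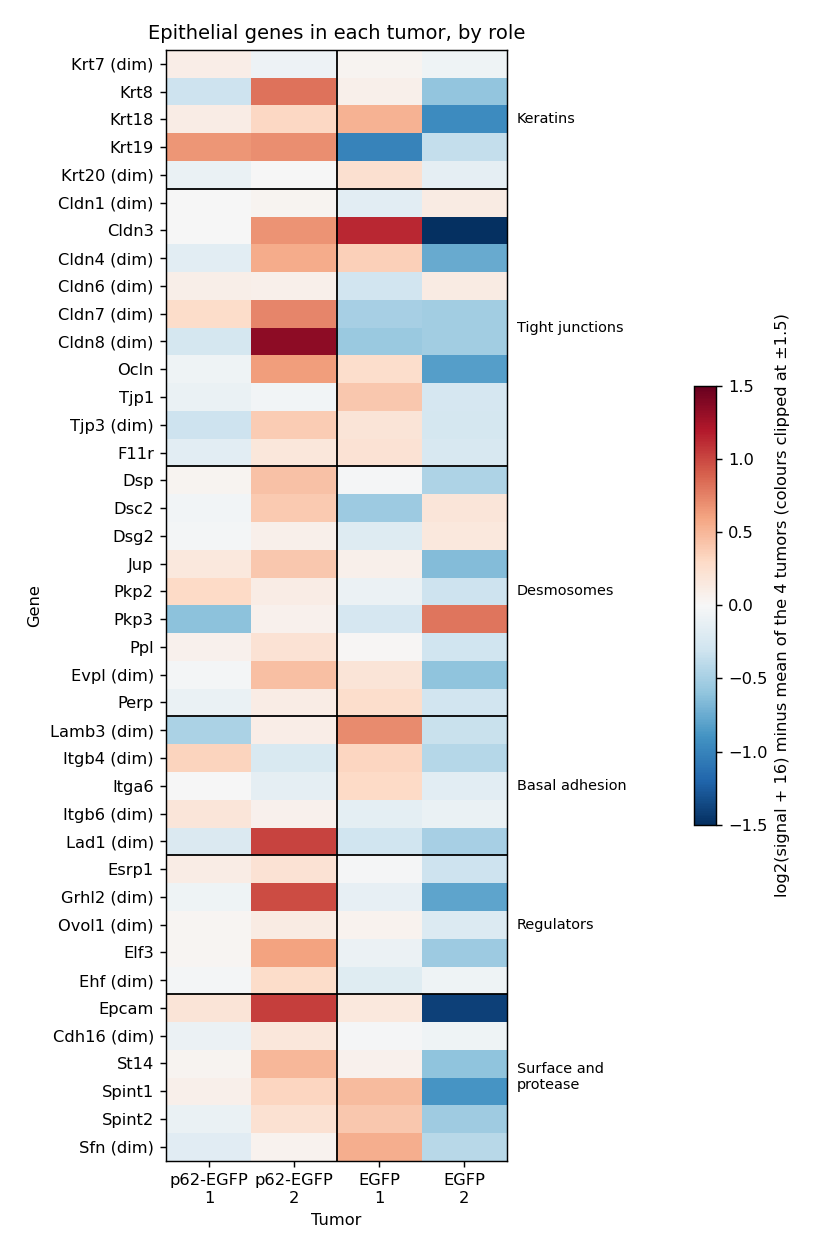
Each row is 1 of the 40 genes, grouped by role, and each column 1 tumor; colour gives log2(signal + 16) minus the gene's mean over the 4 tumors, clipped at ±1.5, and genes marked dim did not pass the filter. EGFP tumor 2 was the lowest of the 4 for 27 of the 40 genes, and p62-EGFP tumor 2 the highest for 21. These counts include the dim genes and have no share over all measured genes beside them.

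Between the groups, 0 of the 22 tested genes passed the threshold (limma, Benjamini-Hochberg adjusted p under 0.05), where 0.051% of all tested genes did, as did 0.0589% (higher) and 0.0295% (lower) of all 13576 tested probe sets. Without adjustment 1 was higher at p under 0.05, Krt19, and 0 were lower, where 8.5% and 6.3% of all tested genes were. The p62-EGFP pair lay wholly above the EGFP pair for 8 of the 22 and wholly below it for 0, against 26.4% and 22.1% of all tested genes; the 8 include Ppl, which the filter kept through its p62-EGFP mean only. The median log2 difference was 0.40 over the 22 and 0.30 over all 40, beside 0.01 over all tested genes and 0.03 over all 12393. The sign was positive for 19 of the 22, beside 51.7% of all tested genes. The 3 with a negative sign were Pkp3, Tjp1 and Itga6.

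The median rested on which EGFP tumor was used, and the plot of differences with each EGFP tumor alone shows it gene by gene. Against EGFP tumor 2 alone, p62-EGFP tumor 1 read higher for 19 and p62-EGFP tumor 2 for 20 of the 22, where 56.3% and 56.6% of all tested genes were higher. Against EGFP tumor 1 alone, p62-EGFP tumor 1 read higher for 10 and p62-EGFP tumor 2 for 14 of the 22, where 47.3% and 47.9% of all tested genes were. These comparisons share tumors. In a fit without EGFP tumor 1, 11 of 22 tested genes were called higher and 1 lower (limma, Benjamini-Hochberg adjusted p under 0.05), where 11.2% and 11% of all tested genes were; in a fit without EGFP tumor 2, 1 of 24 was called higher and 0 lower, where 5.33% and 4.58% were. In these fits the spread is that of the 2 p62-EGFP tumors, and the lone EGFP tumor is assumed to vary as they do. That was not so for the EGFP pair. Over the tested probe sets, the log2 difference between the 2 tumors of a group had an SD of 0.27 for p62-EGFP and 0.60 for EGFP. The calls of these fits thus rest on a smaller spread than the EGFP pair showed. The 11 were Krt18, Krt19, Cldn3, Ocln, Dsp, Jup, Elf3, Epcam, St14, Spint1 and Spint2, the 1 lower was Pkp3, and the 1 called without EGFP tumor 2 was Krt19. With either p62-EGFP tumor left out, 0 were called, as were 0% of all tested genes.

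**Figure D2:**
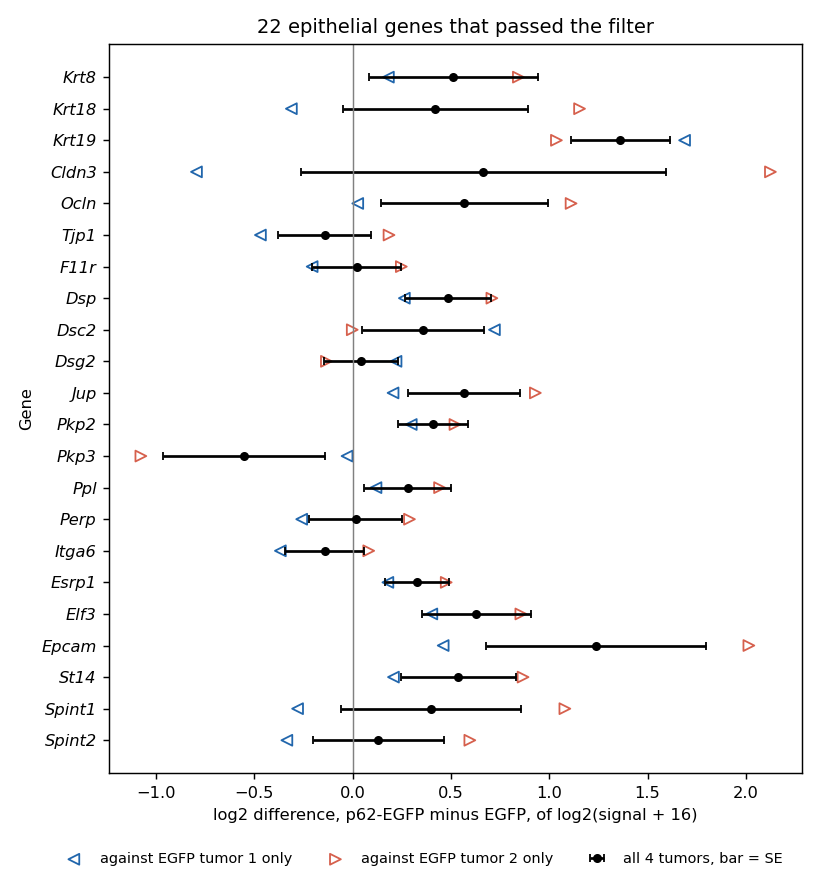
Log2 difference of p62-EGFP minus EGFP for the 22 genes that passed the filter, with all 4 tumors (black, bar = SE of the limma fit) and with only EGFP tumor 1 (blue) or EGFP tumor 2 (red) as comparison. For Cldn3 the values were -0.80 against EGFP tumor 1 and 2.12 against EGFP tumor 2, whereas for Krt19 they were 1.69 and 1.04.

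Among the 5 keratins of the 40 genes, the type I keratin gene Krt19 was the 1 with separate groups. It read 332.9 and 341.3 in p62-EGFP tumors 1 and 2, against 93.6 and 156.2 in EGFP tumors 1 and 2. The p62-EGFP tumors lay close together and well above both EGFP tumors, at 337 ± 5.94 against 125 ± 44.3 (n = 2 each), 2.70 times as high. The log2 difference was 1.36 (SE 0.25), which did not pass (limma, Benjamini-Hochberg adjusted p = 0.188, unadjusted p = 0.00235, higher in 2 of 2 p62-EGFP tumors). Leaving out EGFP tumor 1 or EGFP tumor 2 gave 1.04 and 1.69. Over all alternatives tried the difference ran from 1.04 to 1.69. Under those that kept all tumors its limma adjusted p ran from 0.116 to 0.290. Krt19 lies on chromosome 11, whose 697 tested genes had a median log2 difference of 0.30, and with that subtracted its difference was 1.06.

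The pair Krt8 and Krt18, which together form the filaments of simple epithelia, did not separate the groups. Krt8 read 101.3 and 239.2 in p62-EGFP tumors 1 and 2, against 136.6 and 80.5 in EGFP tumors 1 and 2 (log2 difference 0.51, SE 0.43, limma adjusted p = 0.602). Its other 2 probe sets gave 0.58 and 0.61, again with overlapping groups, and p62-EGFP tumor 2 was the highest on all 3. Those other 2 have names ending in _x_at, the array maker's mark for probes that can bind other transcripts. Krt18 read 544.6 and 627.1 in p62-EGFP tumors, against 729.6 and 253.9 in EGFP tumors (log2 difference 0.42, SE 0.47, limma adjusted p = 0.698). EGFP tumor 2 was the lowest for both keratins, while the highest was p62-EGFP tumor 2 for Krt8 and EGFP tumor 1 for Krt18. Krt7 and Krt20, keratins of other simple epithelia such as ducts and gut, were dim. Krt7 read 8.2 and 5.3 in p62-EGFP tumors, against 7.2 and 5.6 in EGFP tumors, and Krt20 read 0.7 and 1.9 in p62-EGFP tumors, against 5.2 and 0.4 in EGFP tumors.

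**Figure D3:**
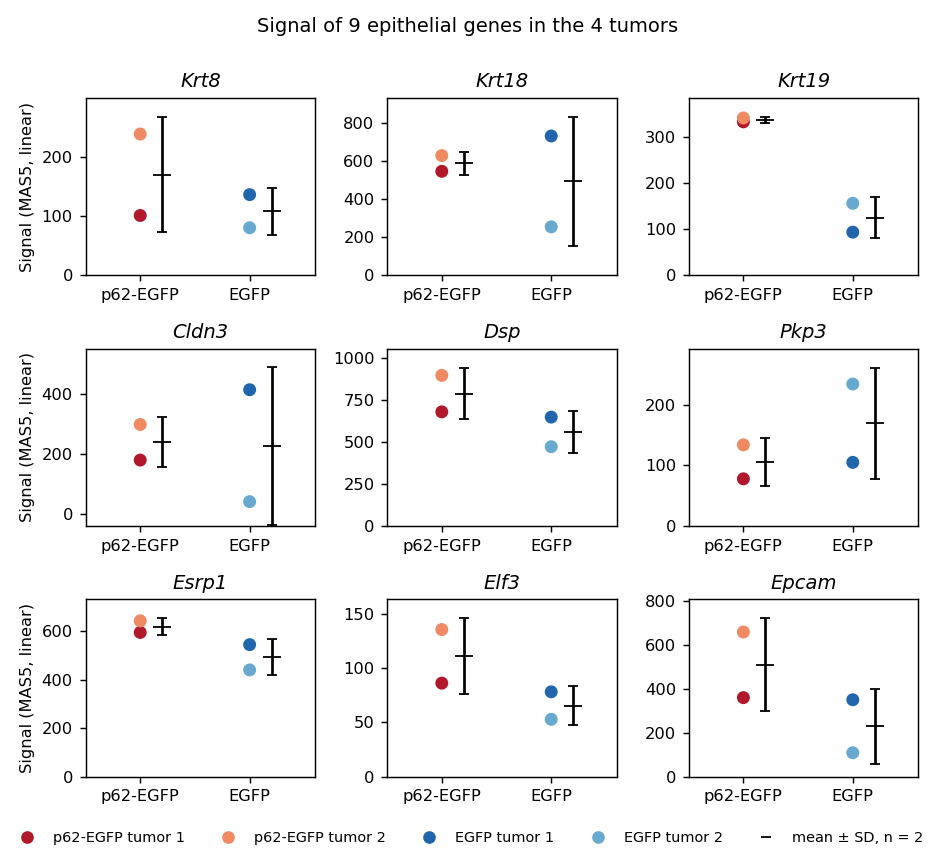
Linear MAS5 signal of 9 genes in each tumor (coloured points) with the mean ± SD of 2 tumors (black) for p62-EGFP and EGFP. The groups are apart for Krt19, Dsp, Esrp1, Elf3 and Epcam and overlap for Krt8, Krt18, Cldn3 and Pkp3, with EGFP tumor 2 lowest for 7 of the 9.

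Of the 10 tight junction genes 4 passed the filter, and the groups overlapped for all 4. Cldn3, a barrier-forming claudin, read 180.4 and 299.6 in p62-EGFP tumors 1 and 2, against 416.0 and 41.1 in EGFP tumors 1 and 2. The EGFP tumors thus held both the highest and the lowest value, and the means were nearly equal, at 240.0 ± 84.3 against 229 ± 265 (log2 difference 0.66, SE 0.93, limma adjusted p = 0.759). The other 3 Cldn3 probe sets gave 0.56 to 0.76 with the same order of tumors, and 2 of the 4 carry the array maker's mark for probes that can bind other transcripts (names ending in _x_at). Ocln, which encodes occludin, a membrane protein of the seal, read 91.6 and 157.6 in p62-EGFP tumors, against 118.3 and 47.3 in EGFP tumors (log2 difference 0.57, SE 0.43, limma adjusted p = 0.562). Tjp1, which encodes the scaffold ZO-1 and is also made by endothelium and fibroblasts, read 586.9 and 609.7 in p62-EGFP tumors, against 834.6 and 524.5 in EGFP tumors (log2 difference -0.14, SE 0.24, limma adjusted p = 0.798). F11r, the adhesion molecule JAM-A, differed by 0.02 (SE 0.23, limma adjusted p = 0.975). For all 4 genes EGFP tumor 2 was the lowest.

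The 6 dim tight junction genes included the 2 claudins with the largest differences of the role. Cldn7, a claudin of tight junctions and the lateral membrane, read 12.7 and 23.4 in p62-EGFP tumors 1 and 2, against 0.7 and 0.5 in EGFP tumors 1 and 2. Cldn8, a claudin of the distal nephron, read 4.0 and 44.8 in p62-EGFP tumors, against 0.3 and 0.7 in EGFP tumors, so that its mean came from p62-EGFP tumor 2. Cldn4, also a claudin of the distal nephron, read 21.0 and 44.6 in p62-EGFP tumors, against 36.8 and 8.3 in EGFP tumors. Cldn1 and Cldn6 read at most 8.8 in any tumor, and Tjp3, which encodes ZO-3, lay between 8.3 and 23.4.

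Desmosomal genes were the best measured role, with 8 of 9 past the filter. The p62-EGFP pair was wholly above the EGFP pair for 4 of the 8 (Dsp, Jup, Pkp2 and Ppl), beside 26.4% of all tested genes. Of these, Ppl was kept by the filter through its p62-EGFP mean only. By limma 0 of the 8 passed with adjustment. None had an unadjusted p under 0.05, where 8.5% of all tested genes were higher and 6.3% lower. Dsp encodes desmoplakin, the linker from the junction to keratin, and read 678.1 and 894.9 in p62-EGFP tumors 1 and 2, against 646.9 and 470.9 in EGFP tumors 1 and 2 (log2 difference 0.49, SE 0.22, limma adjusted p = 0.380). Its other 2 probe sets gave 0.28 and 0.39, and the groups were apart on 2 of the 3. Jup, plakoglobin, the armadillo protein shared with adherens junctions, read 122.8 and 149.0 in p62-EGFP tumors, against 115.3 and 63.5 in EGFP tumors (log2 difference 0.57, SE 0.28, limma adjusted p = 0.412). Jup lies on chromosome 11 like Krt19, and with that chromosome's median subtracted its difference was 0.26. Pkp2, plakophilin 2, read 178.4 and 155.1 in p62-EGFP tumors, against 132.4 and 111.2 in EGFP tumors (log2 difference 0.41, SE 0.18, limma adjusted p = 0.368). A second tested Pkp2 probe set gave 0.44, also with the groups apart. Ppl, the plakin periplakin, read 37.7 and 44.0 in p62-EGFP tumors, against 36.3 and 25.8 in EGFP tumors, a log2 difference of 0.28 (SE 0.22, limma adjusted p = 0.582).

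For the remaining desmosomal genes the groups overlapped. Pkp3, plakophilin 3, was highest in the tumor where most epithelial genes were lowest, with 77.8 and 133.9 in p62-EGFP tumors 1 and 2, against 105.0 and 234.3 in EGFP tumors 1 and 2 (log2 difference -0.55, SE 0.41, limma adjusted p = 0.561). Its second probe set had the same highest tumor, at 74.0, and a difference of -0.17. The desmosomal cadherin gene Dsc2 read 64.3 and 92.7 in p62-EGFP tumors, against 40.7 and 77.6 in EGFP tumors, so that EGFP tumor 1 was the lowest (log2 difference 0.36, SE 0.31, limma adjusted p = 0.611). Dsg2, the partner cadherin, read 219.5 and 237.8 in p62-EGFP tumors, against 193.9 and 252.3 in EGFP tumors (log2 difference 0.04, SE 0.19, limma adjusted p = 0.929). The 4 tested Dsg2 probe sets ranged from 0.04 to 0.40, and on 1 of them the groups were apart, with p62-EGFP higher. Perp, a membrane protein needed for desmosome assembly in skin, differed by 0.01 (SE 0.23, limma adjusted p = 0.984), and Evpl, which encodes envoplakin, was dim at 23.3 and 38.8 in p62-EGFP tumors, against 30.1 and 10.4 in EGFP tumors. Both were lowest in EGFP tumor 2.

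Genes of adhesion to the basement membrane were mostly dim. Itga6, the laminin receptor subunit integrin alpha 6, was the 1 of 5 past the filter and read 397.7 and 364.6 in p62-EGFP tumors 1 and 2, against 496.2 and 359.1 in EGFP tumors 1 and 2 (log2 difference -0.14, SE 0.20, limma adjusted p = 0.756). On its second probe set, with -0.33, the p62-EGFP pair was wholly below the EGFP pair. Its hemidesmosome partner Itgb4 read at most 13.4 and Itgb6, the beta subunit of an epithelial integrin, at most 11.8, and both were dim. The laminin chain gene Lamb3 read 3.9 and 13.6 in p62-EGFP tumors, against 29.1 and 6.0 in EGFP tumors, highest in EGFP tumor 1. Lad1, ladinin, an anchoring filament protein, stood out in 1 tumor with 19.2 and 66.5 in p62-EGFP tumors 1 and 2, against 17.4 and 13.1 in EGFP tumors 1 and 2.

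For both tested regulators of epithelial identity the p62-EGFP pair was wholly above the EGFP pair, as it was for 26.4% of all tested genes. Neither passed the test. Esrp1, the splicing factor that sets epithelial exon choice, read 594.1 and 641.9 in p62-EGFP tumors 1 and 2, against 543.8 and 439.7 in EGFP tumors 1 and 2 (log2 difference 0.33, SE 0.16, limma adjusted p = 0.409). Elf3, an ETS factor of epithelia whose promoter is shown above with 1 CACCTG, read 86.3 and 135.8 in p62-EGFP tumors, against 78.3 and 52.9 in EGFP tumors (log2 difference 0.63, SE 0.28, limma adjusted p = 0.369). The dim Grhl2, a Grainyhead-like activator of junction genes, read 22.5 and 63.8 in p62-EGFP tumors, against 21.0 and 7.4 in EGFP tumors; p62-EGFP tumor 2 was well above the other 3 tumors. The other 3 Grhl2 probe sets gave differences of 0.03 to 0.34 at signals of at most 23.5. Ovol1, an Ovo-like repressor, read 11.3 and 13.1 in p62-EGFP tumors, against 11.8 and 7.3 in EGFP tumors. Ehf, a relative of Elf3, read at most 7.5 on the probe set used and at most 8.1 on its others. Neither Ovol1 nor Ehf was tested.

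Epcam, a homophilic adhesion protein of most epithelia, had the largest difference after Krt19 among the tested genes. It read 360.7 and 660.3 in p62-EGFP tumors 1 and 2, against 351.0 and 108.9 in EGFP tumors 1 and 2 (510.5 ± 212 against 229.95 ± 171, n = 2 each). The groups were apart by the narrow gap between p62-EGFP tumor 1 and EGFP tumor 1, and the log2 difference of 1.24 (SE 0.56) did not pass (limma adjusted p = 0.381). Without EGFP tumor 2 it was 0.46, and without EGFP tumor 1 it was 2.01. The matriptase gene St14 read 105.2 and 149.5 in p62-EGFP tumors, against 106.7 and 61.7 in EGFP tumors (log2 difference 0.54, SE 0.29, limma adjusted p = 0.445). Spint1, which encodes the matriptase inhibitor HAI-1, read 58.4 and 72.9 in p62-EGFP tumors, against 82.8 and 22.5 in EGFP tumors (log2 difference 0.40, SE 0.46, limma adjusted p = 0.705). Spint2, the related inhibitor HAI-2, read 390.7 and 495.3 in p62-EGFP tumors, against 559.3 and 285.8 in EGFP tumors (log2 difference 0.13, SE 0.33, limma adjusted p = 0.873). This probe set has a name ending in _x_at, and the other Spint2 probe set, without that mark, gave 0.24. The protease and both inhibitors were lowest in EGFP tumor 2, while EGFP tumor 1 was the highest for both inhibitors. Sfn, 14-3-3 sigma, was dim, at 16.8 and 22.2 in p62-EGFP tumors, against 37.7 and 11.7 in EGFP tumors, and Cdh16, the kidney-specific cadherin, read at most 3.7 in any tumor.

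The 2 p62-EGFP tumors also differed from each other. Tumor 2 read higher than tumor 1 for 20 of the 22 tested genes, where 52.1% of all tested genes did. The median log2 difference was 0.29 over the 22 and 0.01 over all tested genes. With the dim genes included, tumor 2 read higher for 34 of the 40, a count with no share over all measured genes beside it. Within the EGFP pair, tumor 1 read higher than tumor 2 for 18 of the 22, where 58.3% of all tested genes did, with medians of 0.50 and 0.08.

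Of 47 other epithelial genes that are not among the 40, 38 had a probe set and 20 passed the filter. By limma 0 passed with adjustment, while 1 was higher and 1 lower at an unadjusted p under 0.05, beside 8.5% and 6.3% of all tested genes. The p62-EGFP pair was wholly above the EGFP pair for 5 and wholly below it for 4 of the 20, beside 26.4% and 22.1% of all tested genes, and the median log2 difference was 0.08. Myo5b, a motor of apical membrane recycling, read 66.6 and 80.0 in p62-EGFP tumors 1 and 2, against 31.1 and 29.7 in EGFP tumors 1 and 2 (log2 difference 0.94, SE 0.19, limma adjusted p = 0.202). The polarity gene Crb3 and the transcription factor gene Ovol2, a repressor of Zeb1, both had a log2 difference of 0.61 (limma adjusted p = 0.386 and 0.382). Myo5b and Ovol2 passed the filter on low values through their p62-EGFP means only, so their place among the higher genes is partly set by the filter. On the low side were Plec, the hemidesmosome and cytoskeleton linker plectin, with 224.7 and 266.7 in p62-EGFP tumors, against 362.7 and 417.9 in EGFP tumors (log2 difference -0.64, SE 0.17, limma adjusted p = 0.243), and the transcription factor gene Klf4 (log2 difference -0.48, SE 0.20, limma adjusted p = 0.350). Cdh1, which encodes E-cadherin, read 89.7 and 221.2 in p62-EGFP tumors, against 134.3 and 86.8 in EGFP tumors.

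Of the repressors known to bind CACCTG, Zeb1 and Zeb2 had lower signals throughout the p62-EGFP pair than in the EGFP pair, without passing the test, while the groups overlapped for the Snail family. Zeb1 read 95.4 and 78.9 in p62-EGFP tumors 1 and 2, against 249.5 and 165.4 in EGFP tumors 1 and 2 (log2 difference -1.09, SE 0.24, limma adjusted p = 0.216). Zeb2 read 88.2 and 70.6 in p62-EGFP tumors, against 135.4 and 214.7 in EGFP tumors (log2 difference -0.98, SE 0.26, limma adjusted p = 0.236). Zeb1 was highest in EGFP tumor 1, Zeb2 in EGFP tumor 2, and both were lowest in p62-EGFP tumor 2. Snai2 read 60 and 66.5 in p62-EGFP tumors, against 53.4 and 110.6 in EGFP tumors (log2 difference -0.24, SE 0.32, limma adjusted p = 0.740), and Snai1 was dim, at most 13.7. Among the 12 genes of mesenchymal state listed, 9 passed the filter, 3 had the p62-EGFP pair wholly below (Zeb1, Zeb2 and Vim) and 2 wholly above (Fn1 and Twist1), beside 22.1% and 26.4% of all tested genes. By limma 0 of the 9 passed with adjustment, and 2 were lower and 0 higher at an unadjusted p under 0.05, beside 6.3% and 8.5% of all tested genes. Of the 10 tested endothelial markers, 8 also had the p62-EGFP pair wholly below, beside 22.1% of all tested genes. By limma 6 were lower at an unadjusted p under 0.05, beside 6.3% of all tested genes, and 0 passed with adjustment. The endothelial markers Cdh5, Kdr, Cldn5 and Ptprb, which are in both counts, passed the filter through their EGFP means only. Their place among the lower genes is thus partly set by the filter. Endothelium and other stromal cells express several of the mesenchymal genes, and the part of host cells in their values was not tested.

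The tumors mix grafted cells with mouse host cells. The summed signal of 17 macrophage markers was 3352 and 3514 in p62-EGFP tumors 1 and 2, against 1820 and 16416 in EGFP tumors 1 and 2, with EGFP tumor 2 the highest for all 17. None of the 17 was at 0 in any tumor. The 14 endothelial markers summed to 348.2 and 448.7 in p62-EGFP tumors, against 644.5 and 884.5 in EGFP tumors. The 10 fibroblast markers summed to 2457 and 3152 in p62-EGFP tumors, against 1102 and 3757 in EGFP tumors, so that EGFP tumor 1 held the least signal of both macrophages and fibroblasts. The 14 skeletal muscle markers summed to 5551 and 85.1 in p62-EGFP tumors, against 65.9 and 878.5 in EGFP tumors. The 6 adipocyte markers summed to 1055 and 1092 in p62-EGFP tumors, against 729.3 and 1437 in EGFP tumors, mostly from Fabp4 and Car3, which went opposite ways. Fabp4 read 219.8 and 691.1 in p62-EGFP tumors, against 698.9 and 1303.5 in EGFP tumors. Car3 read 794.2 and 279.2 in p62-EGFP tumors, against 4.1 and 120.7 in EGFP tumors. The other 4, Adipoq, Cidec, Lep and Retn, were dim and highest in p62-EGFP tumor 2, so the sum does not rank the tumors by adipocytes. The part of these cells in the low epithelial signals of EGFP tumor 2 was not tested. Of 14 markers of skin keratinocytes, the other epithelium near the graft, 12 were dim and read at most 15.5 in any tumor, among them Krt5 and Krt14, the keratin pair of the basal layer. Krt10 was measured at 154.8 and 154.9 in p62-EGFP tumors, against 119.9 and 83.3 in EGFP tumors. Its p62-EGFP pair was wholly above, as for 26.4% of all tested genes (log2 difference 0.56, SE 0.21, limma adjusted p = 0.329). Krt10 lies on chromosome 11 like Krt19, and with that chromosome's median subtracted its difference was 0.25. Lor was measured at 96.8 and 66.2 in p62-EGFP tumors, against 83.2 and 97.1 in EGFP tumors, with overlapping groups (log2 difference -0.14, SE 0.22, limma adjusted p = 0.795).

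**Figure D4:**
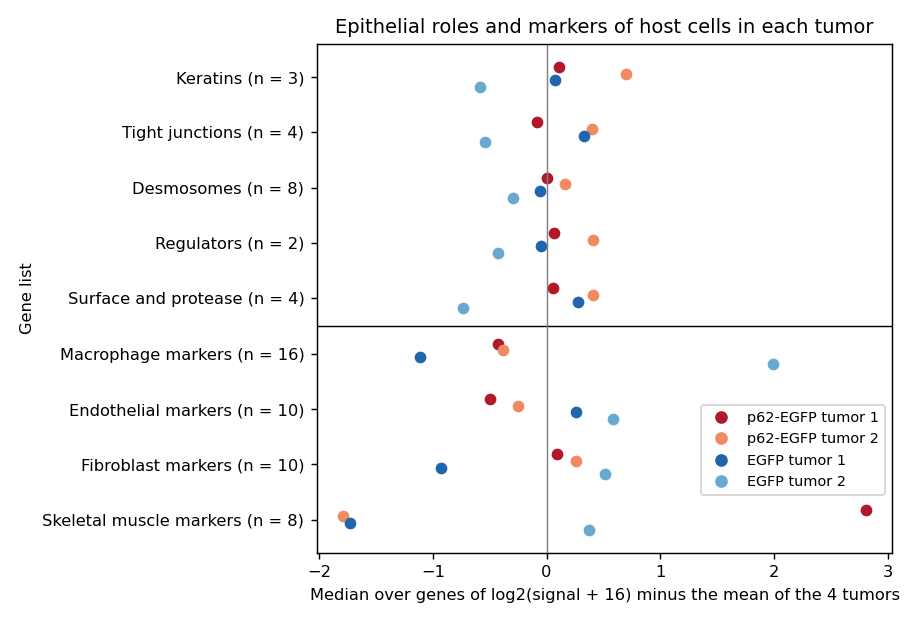
Median over the tested genes of each list of log2(signal + 16) minus the gene's mean over the 4 tumors, 1 point per tumor, for 5 epithelial roles (above the line) and markers of 4 host cell types (below it). In EGFP tumor 2 the median was -0.59 for keratins, -0.54 for tight junctions, -0.29 for desmosomes, -0.43 for regulators and -0.74 for surface and protease genes, and 1.99 for macrophage markers.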

How the data were processed

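RNA of 4 tumors was hybridized as biotin-labelled cRNA to Affymetrix Mouse Genome 430A 2.0 arrays, 1 per tumor. The authors deposited linear signal intensities made with MAS5, per the submitters' processing notes, whose version and settings were not stated. They had been scaled: the mean after trimming 2% of probe sets at each end was 150.04 on each, so the values were used as deposited. Of 22690 probe sets, 64 controls were left out. Genes were named from the supplied array annotation (20380 probe sets with 1 symbol, 691 with several, 1555 with none), and only single-symbol probe sets were named. The Entrez IDs of 20351 matched the RefSeq gene table of GRCm38.p6, which gave the chromosomes.

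The groups were compared on log2(signal + 16) with limma 3.58.1 (lmFit, then eBayes with a mean-variance trend; R 4.3.3). This scale understates changes of dim genes. The fit covered the 13576 probe sets at or above the 40th percentile of the mean, two-sided, with Benjamini-Hochberg adjustment over all of them; limma took the place of Genes@Work, which the design text names and which was not installed. It was tested on simulated data in which all tumors shared 1 spread per probe set, which does not hold for these 2 groups. With 2 against 2 tumors the smallest two-sided p of an exact permutation test is 0.333, and 4 arrays limit the precision. Members and gene lists were chosen with earlier results of these data known, so lists are described by counts and medians and have no test. Values per tumor are given for the keratins, for tested members with separate groups and for the extremes of each role; others named with values per tumor (dim genes with the largest differences, members with several probe sets) were chosen after their values were seen. Alternatives covered array scaling, pseudocounts of 1 and 64, the filter, the variance model, a replicate block, averaging probe sets, chromosome medians and leaving out each tumor. Same-numbered tumors did not deviate together (r = 0.08 over 13576 probe sets, 2 pairs), and the labels give no shared origin for them. Promoters come from RefSeq's GRCm38.p6, with the first listed start where a gene had several (5 members). Figures were drawn with matplotlib 3.10.9 in Python 3.11.15.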

Additional observations from a re-analysis of the deposited data

How the results depend on the processing

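The count of the 40 genes past the threshold was 0 in the fit of all tumors and under each alternative that kept them, and ran from 0 to 12 when 1 tumor was left out. The count of probe sets higher in p62-EGFP tumors, 8 in the fit of all tumors, was 4 with a filter at the 60th percentile, 3 with no filter, 4 with a pseudocount of 1 and 14 with the replicate block, and ran from 0 to 1513 when 1 tumor was left out. The count of lower probe sets, 4, was 23 with the replicate block and ran from 0 to 1322 when 1 tumor was left out. The replicate block, for numbers that pair nothing known, changed no other call. The median over all 40 genes, 0.30, stayed positive under every alternative, from 0.09 to 0.48.

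Among the tested genes, the sign turned when 1 tumor was left out for Cldn3 (range -0.80 to 2.12), Krt18 (-0.31 to 1.15), Krt8 (-0.049 to 1.07), Dsc2 (-0.0027 to 0.72), Dsg2 (-0.13 to 0.22), F11r (-0.21 to 0.25), Itga6 (-0.37 to 0.081), Perp (-0.26 to 0.29), Spint1 (-0.28 to 1.08), Spint2 (-0.34 to 0.60) and Tjp1 (-0.47 to 0.18). Dim genes turned sign as well, such as Lamb3 (-0.89 to 0.14) and Sfn (-0.60 to 0.35). F11r was also negative with all tumors kept, at -0.045 with the mean of the probe sets of a gene and at -0.13 with chromosome medians subtracted. Medians turned sign for keratins (-0.031 to 0.84), tight junctions (-0.066 to 0.63), surface proteins and proteases (-0.11 to 0.73) and basal adhesion (-0.28 to 0.22), the last also with chromosome medians subtracted (-0.20). The median of desmosomes ran from 0.17 to 0.44 and that of regulators from 0.27 to 0.48 without 1 tumor. For the lists that turned sign, leaving out EGFP tumor 2 gave the lowest value. Signals near the pseudocount limit what can be said of the 18 dim genes.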

Other observations

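Dim genes that were high in p62-EGFP tumor 2 alone were found outside the 40 as well; they were noticed after their values were seen and have no test. Rab25, a small GTPase of apical recycling in epithelia, read 2.5 and 91.1 in p62-EGFP tumors 1 and 2, against 18.4 and 1.9 in EGFP tumors 1 and 2. Prss8, the membrane protease prostasin that acts with matriptase, read 1.8 and 27.3 in p62-EGFP tumors, against 3.2 and 0.6 in EGFP tumors.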
